A study of Mus musculus with 66 samples.

Results

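The 10 secreted signals that set the balance of Wnt and BMP signalling in the gut wall were followed through dextran sulfate sodium (DSS) colitis in mice. They were 3 Wnt ligands (Wnt2b, Wnt5a and Wnt4), 3 R-spondins (Rspo1, Rspo2 and Rspo3), the BMP antagonist Grem1, and 3 BMP ligands (Bmp4, Bmp2 and Bmp5). They were picked by gene symbol and made up 10 of the 30452 genes in the deposited table. DSS in drinking water is a chemical injury of the colonic lining. C57Bl/6 mice, bought at 6 weeks of age and carrying no engineered allele per the labels, received 3% DSS for 6 days from day 0. Sections of midcolon, rectum and anus came from 4 uninjured mice (day 0) and from 3 mice at each of days 3, 6, 9, 14 and 20. A squamous neo-epithelium section was also taken from the 9 mice of days 9, 14 and 20. All sections had their muscle layer discarded and were measured as bulk tissue by RNA-seq, 66 samples from 19 mice. Values are TPM, a relative abundance adjusted for transcript length and library total, so levels can be compared between genes, and the depth per sample is unknown. The mice are separate animals, and the sections of 1 mouse share that animal.

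As background, Wnt ligands that act through β-catenin keep the epithelial stem cells at the base of each crypt dividing, and R-spondins amplify that signal by sparing the Frizzled receptors from removal. BMP ligands act in the opposite direction and drive differentiation towards the crypt top. Gremlin 1, made by fibroblasts and muscularis mucosae cells below the crypts, binds BMP2 and BMP4 and shields the crypt base from them. Most of these signals come from the stroma, but some are also made by epithelium.

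The sections carried the markers that their labels call for, with exceptions that touch the signals. Squamous epithelial markers (keratins 5, 13, 14 and 15 and Trp63, all 5 listed genes) summed to 9280 TPM (range 7716 to 11180) in uninjured anus and 22220 TPM (range 21340 to 23000) in day 9 neo-epithelium, against 51.8 TPM (range 11.5 to 86.3) in uninjured rectum. In the rectum the same sum reached up to 761 TPM in 1 mouse of day 14. Skeletal muscle markers were present in the anus at 6548 TPM (range 1492 to 14340) although the muscle layer was discarded, and smooth muscle markers summed to 1159 TPM (range 1044 to 1253) in uninjured rectum. No gene of the fibroblast marker list was at 0 in any group. Per sample, 11268 to 13789 genes reached 1 TPM. In bulk tissue, fewer cells of a type and less RNA per cell cannot be told apart.

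The word stromal did not describe all the signals equally well in these samples. Across the 66 samples, log2 levels of Bmp4 followed the mean of 8 fibroblast markers most closely (Pearson r 0.89). Wnt4 followed the squamous epithelial markers (r 0.97) more closely than the fibroblast markers (r 0.86). Bmp2 followed the colonocyte markers (r 0.85) and ran opposite to the fibroblast markers (r -0.59). Grem1 and Rspo3 followed the fibroblast markers loosely over all sections, with r 0.17 and 0.36, and 5 subepithelial telocyte markers somewhat more closely, with r 0.59 and 0.55. Within the 19 rectal samples their values to the fibroblast markers were 0.72 and 0.74. These values describe samples that share section, day and mouse, and carry no test.

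Rspo3, Bmp4 and Bmp2 had at least 1 TPM in 66 of 66 samples, Grem1 in 65, Bmp5 in 63, Wnt5a in 52, Wnt4 in 43, Wnt2b in 35 and Rspo1 in 27. Rspo2 reached 1 TPM in none, was listed at 0 in 35 samples and was never tested. Only genes that reached 1 TPM in enough samples to fill the smaller of the groups compared were tested. A gene was called if its Benjamini-Hochberg adjusted p, over all genes tested with limma, was under 0.05. Over 23 comparisons the signals gave 174 tests, of which 52 were calls, 32 higher and 20 lower. The plot of TPM by day gives every value.

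**Figure D1:**
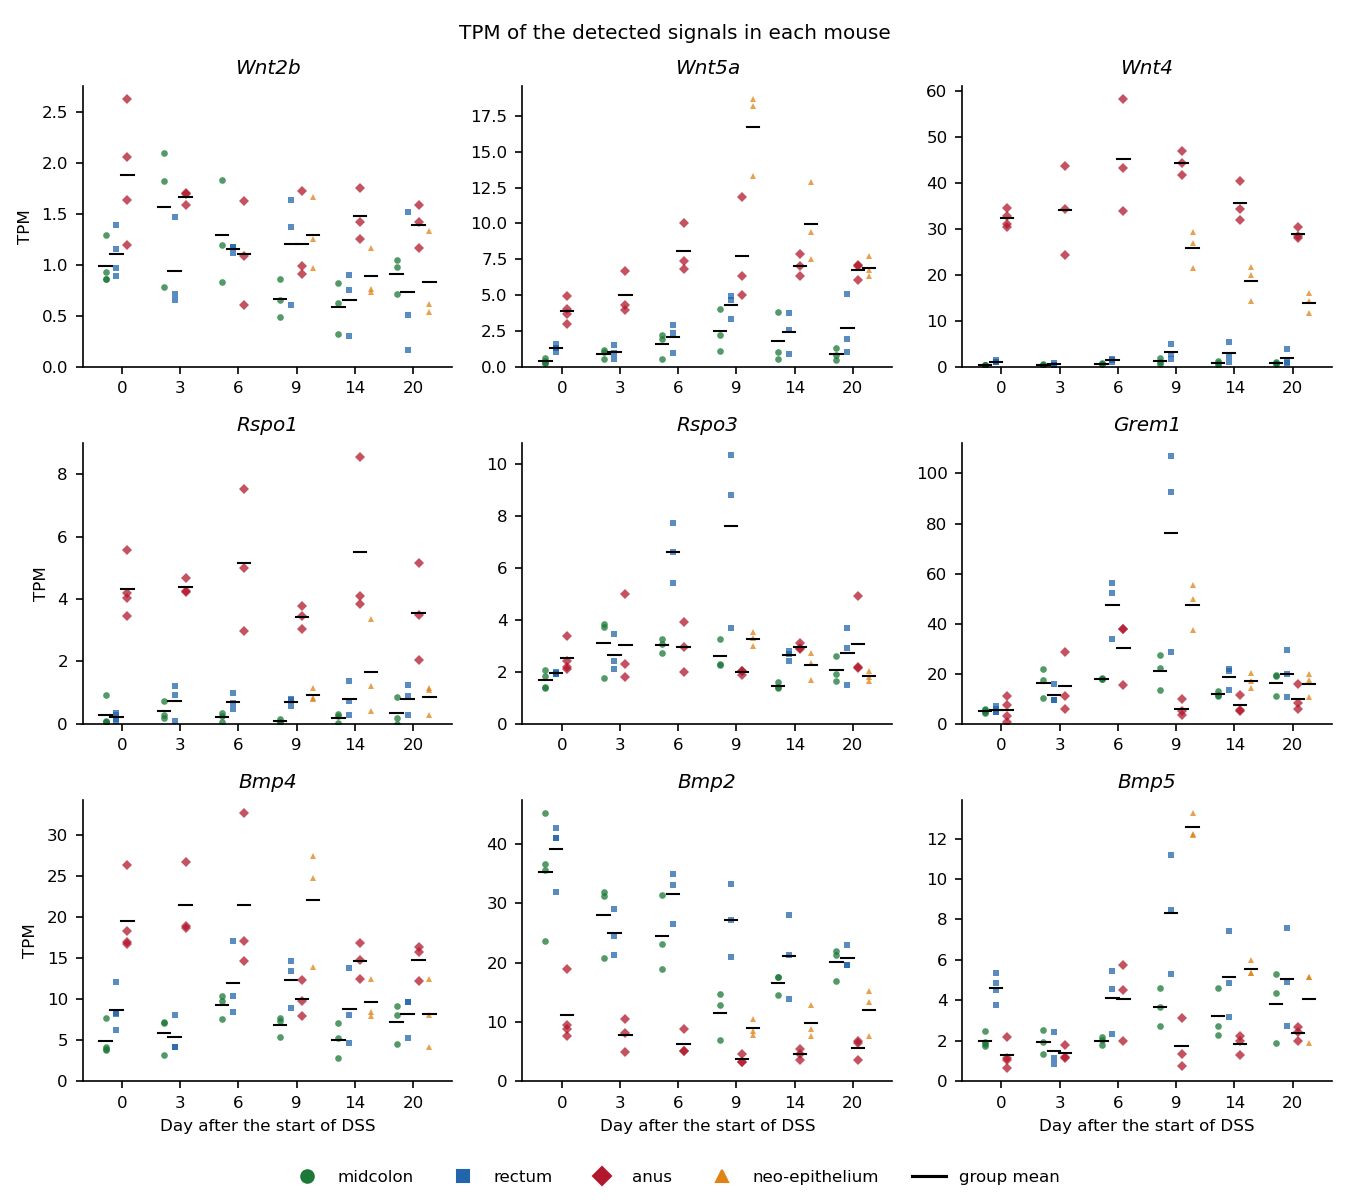
TPM (vertical axis, linear, from 0) of 9 signals against the day of the experiment, with 1 point per mouse and section and a black bar for the group mean (n = 4 mice at day 0, 3 at other days). At days 6 and 9 the rectum has the highest mean of the sections for Grem1 and for Rspo3, the anus has the highest mean of Wnt4 and of Rspo1 at every day, and Bmp2 has its highest means in the uninjured rectum and midcolon.

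In uninjured mice several signals differed between the anus and the rectum, as did many of all genes. Of the 9 signals tested, 4 were higher in the anus (Wnt4, Rspo1, Bmp4 and Wnt5a) and 2 were lower (Bmp2 and Bmp5). That share is near the 60.3% called of all genes tested. Wnt4, a ligand that in many tissues acts outside the β-catenin pathway, had 34.7, 32.9, 31.2 and 30.5 TPM in the 4 anal sections and 1.35, 0.955, 1.07 and 0.940 TPM in the 4 rectal ones. The values did not come near each other, and the log2(TPM + 1) difference was 4.00 (SE 0.14, adjusted p = 4.51e-08). Rspo1 had 4.05, 5.58, 3.44 and 4.19 TPM in the anus and 0.160, 0.107, 0.271 and 0.357 TPM in the rectum, a difference of 2.11 (SE 0.16, adjusted p = 4.35e-06). Bmp2 went the other way, with 7.57, 9.40, 8.77 and 18.9 TPM in the anus and 41.0, 41.0, 42.8 and 32.0 TPM in the rectum, a difference of -1.80 (SE 0.25, adjusted p = 0.000196). All 4 mice had less Bmp2 in the anus than in the rectum. Bmp4 differed by 1.09 (SE 0.21, adjusted p = 0.00161), Wnt5a by 1.07 (SE 0.17, adjusted p = 0.000401) and Bmp5 by -1.34 (SE 0.21, adjusted p = 0.000444), each in the same direction in 4 of 4 mice. Grem1 did not pass the test, with 0.942, 7.66, 11.1 and 3.25 TPM in the anus against 4.91, 4.80, 5.93 and 7.00 TPM in the rectum and a difference of -0.28 (95% interval -1.36 to 0.79, adjusted p = 0.628). Fibroblast markers differed too, with 7 of 8 higher in the anus and a sum of 2048 TPM (range 1680 to 2407) against 606 TPM (range 544 to 668). Their part in the result was not tested.

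Uninjured rectum and midcolon were closer to each other. Of 6 signals tested, Wnt5a and Bmp5 were higher in the rectum, where 1.79% of all genes were called. Bmp5 had 3.76, 4.53, 5.33 and 4.83 TPM in the rectum and 1.84, 1.94, 2.46 and 1.72 TPM in the midcolon, a difference of 0.91 (SE 0.14, adjusted p = 0.024). Wnt5a, a ligand known from gut mesenchyme that acts largely outside the β-catenin pathway, had 1.05, 1.32, 1.57 and 1.33 TPM against 0.275, 0.421, 0.589 and 0.248 TPM, a difference of 0.75 (SE 0.13, adjusted p = 0.0301). For both genes the groups did not overlap. With the mouse as a paired block, Bmp4 was called as well (log2 difference 0.74, adjusted p = 0.0307, against 0.114 without the block). The Wnt5a call was lost without mouse 1, 2, 3 or 4 (adjusted p up to 0.224), with no filter on low values (0.054) and with TMM factors (0.0518), and the Bmp5 call without mouse 1, 2 or 3 (adjusted p up to 0.197) and with no filter on low values (0.0589).

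The order of levels per length at day 0 also differed between sections. In the rectum Bmp2 stood highest at 39.2 ± 4.87 TPM (SD, n = 4), above Bmp4 at 8.73 ± 2.47, Grem1 at 5.66 ± 1.03 and Bmp5 at 4.61 ± 0.655 TPM. Below them came Rspo3 at 1.95 ± 0.0316, Wnt5a at 1.32 ± 0.213, Wnt2b at 1.10 ± 0.224, Wnt4 at 1.08 ± 0.189 and Rspo1 at 0.224 ± 0.112 TPM. The ranges of Grem1 and Bmp5 overlapped, as did those of Wnt5a, Wnt2b and Wnt4. In the anus Wnt4 stood highest at 32.3 ± 1.88 TPM, above Bmp4 at 19.6 ± 4.57 and Bmp2 at 11.2 ± 5.22 TPM. Rspo3 made up 89.5% of the summed R-spondin TPM in the rectum and 37.1% in the anus, where Rspo1 made up 62.7%. Bmp2 made up 74.6% of the sum of the 3 BMP ligands in the rectum and 34.1% in the anus. Of these 3 BMP ligands, Bmp2 had the highest mean in rectum and midcolon and Bmp4 in the anus. In the anal section of mouse 4, however, Bmp2 made up 47.95% and Bmp4 46.46% of the sum.

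More signals were called in the rectum at day 9, after the end of DSS, than in any other comparison with day 0. There, 6 of 8 tested signals were called against day 0, 5 of them higher, where 53.5% of all genes were called. In the rectum the counts at the other days were 3 of 7 at day 3 (background 6.62%), 2 of 8 at day 6 (48.7%), then 2 of 7 on day 14 (15.8%) and 2 of 8 at day 20 (7.68%). At day 6 the share of signals called was below that of all genes. In the midcolon no signal of 6 was called at day 3 with limma (2 had an unadjusted p under 0.05), where 0.375% of all genes were called. Later counts there were 3 of 6 at day 6 (14.9%), 4 of 6 at day 9 (43.4%), then 2 of 5 on day 14 (4.36%) and 1 of 5 at day 20 (1.56%). In the anus 2 of 9 were called at day 6 (15%) and 1 of 9 at day 9 (5.09%). No signal of 9 was called there at day 3 (0.044%), day 14 (4.27%) or day 20 (1.46%), and 0, 2 and 3 of them had an unadjusted p under 0.05. All comparisons with day 0 in a section share its 4 uninjured samples. The median gene itself shifted by up to -0.27 on the log2 scale at day 6 in the rectum and by 0.13 at day 9. With TMM factors these medians were -0.06 and -0.15, and every called signal kept its direction.

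**Figure D2:**
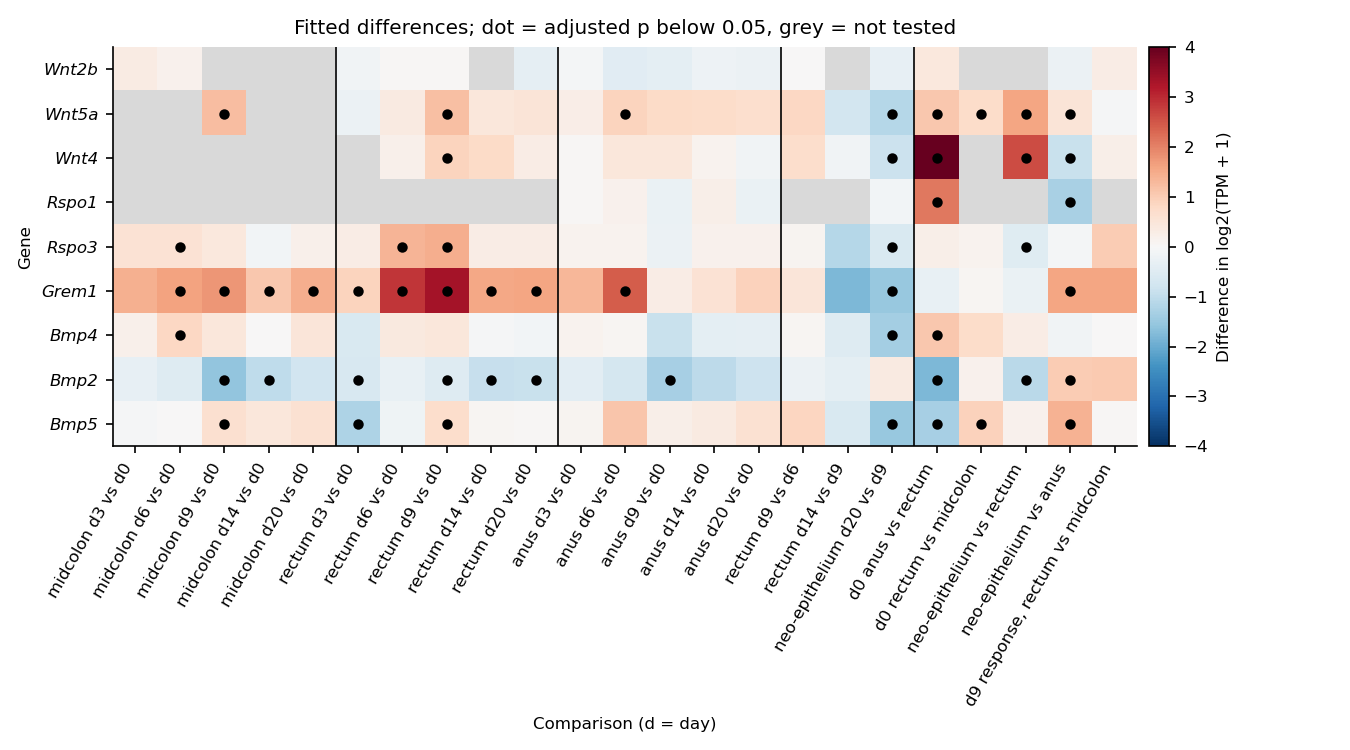
Fitted differences in log2(TPM + 1) (colour, red higher in the group or section named first, blue lower) for 9 signals over 23 comparisons, in blocks for midcolon, rectum and anus against day 0, for later days against each other, and between sections. A dot marks an adjusted p below 0.05 and grey a gene that was not tested. The Grem1 row is red with a dot in all 5 rectal comparisons, and the Bmp2 row is blue in all 15 comparisons with day 0, 7 of them with a dot.

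Grem1, whose protein binds and blocks BMP ligands, had the largest log2(TPM + 1) rises of the tested signals in the rectum against day 0. It was called higher there at every day. Rectal sections had 4.91, 4.80, 5.93 and 7.00 TPM at day 0, 9.68, 9.34 and 16.0 TPM at day 3 and 56.2, 34.1 and 52.2 TPM at day 6. At day 9 they had 92.5, 28.9 and 107 TPM, the second of these in mouse 12, and at day 14 13.5, 22.0 and 21.1 TPM. At day 20 they had 29.4, 10.9 and 19.7 TPM. No rectal sample of a later day was as low as any of day 0. The log2 difference was 0.90 (SE 0.20, adjusted p = 0.028) at day 3, 2.85 (SE 0.19, adjusted p = 6.00e-05) at day 6 and 3.34 (SE 0.40, adjusted p = 0.000175) at day 9. It was 1.56 (SE 0.20, adjusted p = 0.0064) at day 14 and 1.57 (SE 0.30, adjusted p = 0.0285) at day 20, so Grem1 was still about 2.96-fold above uninjured rectum on the TPM + 1 scale at the last day studied. Neither the step from day 6 to day 9 (0.50, 95% interval -0.56 to 1.55, adjusted p = 0.421) nor that from day 9 to day 14 (-1.79, 95% interval -2.92 to -0.65, adjusted p = 0.062) was called. No signal passed the test in these steps, in which 37.9% and 8.04% of all genes were called and 2 signals each had an unadjusted p under 0.05. The day 3 call was lost without mouse 1, 2, 3 or 5 (adjusted p up to 0.0789), with no filter on low values (0.088) and with all days of the section in 1 fit (0.388), and the day 20 call without mouse 1, 2, 3 or 4 (adjusted p up to 0.0945) and with no filter on low values (0.0703).

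Summed markers of stromal and immune cells were higher in the rectum at day 9, when Grem1 and Rspo3 were high, but not all were at day 6. From day 0 to day 9 the fibroblast markers went from 606 TPM (range 544 to 668) to 1146 TPM (range 807 to 1384). Of 8 of them 4 were called higher and none lower, a share near the 53.5% of all genes called. The subepithelial telocyte markers went from 50.7 TPM (range 48.0 to 56.5) to 143 TPM (range 106 to 176), with 2 of 3 tested called higher and 1 lower. The trophocyte and CD34+ stromal markers went from 128 TPM (range 114 to 154) to 292 TPM (range 243 to 342), with 2 of 5 called higher and 1 lower. Leukocyte markers went from 15.5 TPM (range 13.1 to 19.2) to 11520 TPM (range 10430 to 12330), 5 of 5 called higher. At day 6 the sums were 907 TPM (range 600 to 1359) for fibroblast, 62.5 TPM (range 60.6 to 64.3) for telocyte and 117 TPM (range 112 to 124) for trophocyte and CD34+ stromal markers. The last of these overlapped with day 0, while Grem1 and Rspo3 were already called higher. Of 8 fibroblast markers 2 were called at day 6, where 48.7% of all genes were called. The part of these lists in the Grem1 and Rspo3 levels was not tested.

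Mouse 12 stood apart at day 9 in the rectum for more than Grem1. Its smooth muscle markers summed to 252 TPM, against 1440 and 1452 TPM in mice 11 and 13. Its fibroblast markers summed to 807 TPM against 1384 and 1248 TPM. Its leukocyte markers did not stand apart, at 11790 TPM against 12330 and 10430 TPM. Without mouse 12 the Grem1 difference at day 9 was 3.93, and over all single mice left out it ranged from 3.00 to 3.93 and stayed called. The part of these cell type markers in the Grem1 level was not tested.

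In the midcolon Grem1 also rose, at days 6 to 20. The values were 4.38, 5.64, 5.96 and 4.93 TPM at day 0, 10.1, 21.9 and 17.3 at day 3, 18.1, 18.1 and 17.8 at day 6 and 13.4, 27.5 and 22.2 at day 9. They were 11.3, 11.5 and 13.2 TPM on day 14 and 19.4, 11.1 and 19.0 TPM on day 20. Every sample after day 0 was above all 4 uninjured samples. The log2 difference was 1.62 (SE 0.16, adjusted p = 0.000554) at day 6, 1.78 (SE 0.24, adjusted p = 0.000289) at day 9, 1.07 (SE 0.17, adjusted p = 0.016) at day 14 and 1.46 (SE 0.24, adjusted p = 0.0215) at day 20, while day 3 missed the threshold at 1.43 (SE 0.25, adjusted p = 0.0535). With TMM factors or with all days in 1 fit, day 3 was called too (adjusted p = 0.0203 and 0.0153). The midcolon fibroblast markers summed to 397 TPM (range 346 to 475) at day 0 and 305 TPM (range 250 to 340) at day 9, with 4 of 8 called lower and 2 higher, where 43.4% of all genes were called. The trophocyte and CD34+ stromal markers summed to 107 TPM (range 95.3 to 113) and 153 TPM (range 145 to 167), with 3 of 5 called lower and 2 higher. The subepithelial telocyte markers summed to 50.3 TPM (range 48.9 to 52.0) and 47.1 TPM (range 39.1 to 55.6), with 1 of 2 tested called lower. Leukocyte markers summed to 7.76 TPM (range 5.15 to 10.0) at day 0 and 1241 TPM (range 465 to 2105) at day 9, 5 of 5 called higher, and the part of these lists was not tested. The day 14 call was lost without mouse 1, 2, 15 or 16 (adjusted p up to 0.0956), and the day 20 call without mouse 1, 2, 3 or 17 (adjusted p up to 0.0874) and with no filter on low values (0.0934).

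In the anus Grem1 was called at 1 day. Anal sections had 0.942, 7.66, 11.1 and 3.25 TPM at day 0, the widest spread of the 3 sections, and 37.8, 37.7 and 15.5 TPM at day 6, all above day 0. The day 6 difference was 2.43 (SE 0.61, adjusted p = 0.0299). Day 9 values were back to 5.05, 3.57 and 9.78 TPM, within the day 0 range. The day 6 call was lost without mouse 4, 8 or 9 (adjusted p up to 0.114) and with no filter on low values (0.075).

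The region upstream of Grem1 is shown with those of Bmp4 and Bmp5, because these 3 genes of the BMP arm fell together in the neo-epithelium between days 9 and 20 and the table of RefSeq promoters (GRCm38.p6) holds them. It holds 6 of the 10 signals. Each sequence below runs 5′ to 3′ on the strand of its gene, from 250 to 11 bases before the RefSeq start. Grem1 lies on chr2 (window chr2:113758659-113758898, minus strand), Bmp4 on chr14 (chr14:46390680-46390919, minus strand) and Bmp5 on chr9 (chr9:75775115-75775354, plus strand). Capitals mark matches, on either strand, to 6 motifs, which are TATAAA (the TATA box), GGGCGG (the GC box), TGANTCA (an AP-1 site), GGCGCC (a GC-rich SMAD element), CTTTGAT (a TCF site) and CCAAT (the CCAAT box).
Grem1: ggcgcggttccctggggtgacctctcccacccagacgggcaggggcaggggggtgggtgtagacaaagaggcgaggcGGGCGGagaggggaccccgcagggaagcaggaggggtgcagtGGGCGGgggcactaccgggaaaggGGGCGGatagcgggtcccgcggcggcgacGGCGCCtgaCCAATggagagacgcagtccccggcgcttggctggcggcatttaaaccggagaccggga
Bmp4: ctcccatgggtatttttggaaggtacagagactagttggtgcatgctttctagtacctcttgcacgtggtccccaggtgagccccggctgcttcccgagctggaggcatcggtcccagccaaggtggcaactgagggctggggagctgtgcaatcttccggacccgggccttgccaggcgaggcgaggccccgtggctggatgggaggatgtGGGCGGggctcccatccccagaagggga
Bmp5: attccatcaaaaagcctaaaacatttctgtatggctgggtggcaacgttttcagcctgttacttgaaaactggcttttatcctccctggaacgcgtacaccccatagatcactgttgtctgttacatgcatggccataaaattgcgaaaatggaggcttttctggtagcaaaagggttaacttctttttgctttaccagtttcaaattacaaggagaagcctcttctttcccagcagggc
In the Grem1 window there were 3 matches to GGGCGG, 1 to GGCGCC and 1 to CCAAT, which did not overlap each other. The Bmp4 window had 1 match to GGGCGG and the Bmp5 window had no match to any of the 6. Of all 32851 windows of this length, 31.3% held GGGCGG, 9.08% GGCGCC, 33.0% CCAAT, 12.1% TATAAA, 6.58% TGANTCA and 3.1% CTTTGAT. The Grem1 window held 23 CG pairs, the Bmp4 window 10 and the Bmp5 window 4, where the median window held 5. A match is a stretch of letters, not a bound site.

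Rspo3, the main R-spondin of the colonic sections, rose with Grem1 in the rectum. It had 1.92, 1.92, 1.98 and 1.96 TPM at day 0, 7.75, 5.44 and 6.63 TPM at day 6 and 8.80, 3.70 and 10.4 TPM at day 9. All 6 injured samples were above the 4 uninjured ones, which lay within a narrow range, and mouse 12 was again the lowest at day 9. The log2 difference was 1.36 (SE 0.14, adjusted p = 0.000322) at day 6 and 1.45 (SE 0.28, adjusted p = 0.00235) at day 9. By day 14 rectal Rspo3 was at 2.68, 2.81 and 2.43 TPM, and neither day 14 nor day 20 was called (0.31, SE 0.12, adjusted p = 0.119 at day 14, and 0.29, SE 0.22, adjusted p = 0.421 at day 20). In the midcolon it was called at day 6, with 2.74, 3.07 and 3.26 TPM against 1.43, 1.38, 2.08 and 1.84 TPM at day 0 and a difference of 0.59 (SE 0.17, adjusted p = 0.0429). That call was lost without mouse 1, 2, 3, 8, 9 or 10 (adjusted p up to 0.158), with no filter on low values (0.0799) and with all days of the section in 1 fit (0.0507). Midcolon differences of 0.58 (SE 0.24, adjusted p = 0.417) at day 3 and 0.43 (SE 0.19, adjusted p = 0.0948) at day 9 missed the threshold. With limma 3 of the 5 midcolon days had an unadjusted p under 0.05. In the anus no day was called for Rspo3 with limma, and 0 of 5 had an unadjusted p under 0.05.

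Rspo1, which shares the R-spondin role, stayed near or under 1 TPM in the colon. Its group means in the midcolon lay between 0.0826 and 0.401 TPM and in the rectum between 0.224 and 0.811 TPM, so it was not tested there against day 0. In the anus its means lay between 3.43 and 5.50 TPM and with limma none of 5 days was called (0 with an unadjusted p under 0.05). Rspo2, known as an intestinal mesenchymal R-spondin, was near 0 everywhere, and its highest single value was 0.172 TPM in a day 20 anal section.

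Among the Wnt ligands, Wnt5a was called higher in midcolon and rectum at day 9 and in the anus at day 6. Rectal values went from 1.05, 1.32, 1.57 and 1.33 TPM at day 0 to 4.65, 3.35 and 4.96 TPM at day 9, without overlap, a difference of 1.19 (SE 0.17, adjusted p = 0.000405). Midcolon values went from 0.275, 0.421, 0.589 and 0.248 to 1.10, 4.04 and 2.23 TPM, a difference of 1.24 (SE 0.27, adjusted p = 0.00436), again without overlap. At its other days Wnt5a was too low in the midcolon to be tested. At days 14 and 20 single rectal samples stayed high, with 0.915, 3.71 and 2.54 TPM and 5.08, 1.00 and 1.94 TPM, and neither day was called. In the anus Wnt5a was 4.00, 3.00, 4.91 and 3.66 TPM at day 0 and 10.0, 7.34 and 6.81 TPM at day 6, a difference of 0.89 (SE 0.22, adjusted p = 0.0305). That call was lost without mouse 2, 8, 9 or 10 (adjusted p up to 0.138) and with no filter on low values (0.0553). At days 9, 14 and 20 every anal sample was also above day 0, with 5.02, 6.30 and 11.9 TPM, 6.30, 7.02 and 7.86 TPM and 6.08, 7.11 and 7.01 TPM. These differences of 0.77 (SE 0.29, adjusted p = 0.186), 0.73 (SE 0.20, adjusted p = 0.0955) and 0.67 (SE 0.20, adjusted p = 0.136) missed the threshold, while 4 of the 5 anal days had an unadjusted p under 0.05.

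Wnt4 was called in 1 of its 9 tests against day 0, in the rectum at day 9, where it had 2.66, 1.66 and 4.96 TPM. The difference from day 0 was 0.90 (SE 0.26, adjusted p = 0.0166), and the call was lost with all days of the section in 1 fit (0.0511). Rectal squamous epithelial markers summed to 51.8 TPM (range 11.5 to 86.3) at day 0 and 243 TPM (range 77.5 to 561) at day 9, and the ranges overlapped. Of 4 tested 2 were called higher, a share near the 53.5% of all genes called. The part of these markers in the Wnt4 level was not tested. In the anus Wnt4 means lay between 29.0 and 45.2 TPM and with limma no day was called (1 of 5 with an unadjusted p under 0.05). The midcolon was too low to be tested, with a Wnt4 mean of 0.338 TPM at day 0 and 1.18 TPM at day 9. All its samples of days 6, 9, 14 and 20 were above day 0. Rectal day 3 was not tested either, and lay wholly below day 0, at a mean of 0.509 TPM against 1.08 TPM. Wnt2b, a mesenchymal ligand of the β-catenin pathway that is known to support colonic stem cells, was called in none of the 11 comparisons with day 0 in which it was tested with limma, and 0 of them had an unadjusted p under 0.05. Its rectal means lay between 0.652 and 1.20 TPM over all days.

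Bmp2 fell in all 3 sections, and each of its 7 calls against day 0 was lower. In the midcolon it had 36.6, 35.6, 45.3 and 23.7 TPM at day 0, 6.93, 12.8 and 14.7 TPM at day 9 and 17.6, 17.6 and 14.5 TPM at day 14, without overlap. The log2 difference was -1.56 (SE 0.28, adjusted p = 0.00138) at day 9 and -1.02 (SE 0.22, adjusted p = 0.0366) at day 14. In the rectum it had 41.0, 41.0, 42.8 and 32.0 TPM at day 0, 24.4, 21.3 and 29.1 TPM at day 3, 20.99, 27.1 and 33.2 TPM at day 9 and 19.6, 23.0 and 19.6 TPM at day 20. Rectal day 9 overlapped with day 0, while days 3, 14 and 20 did not. The rectal differences were -0.63 (SE 0.14, adjusted p = 0.0258) at day 3, -0.53 (SE 0.17, adjusted p = 0.0288) at day 9, -0.91 (SE 0.22, adjusted p = 0.0336) at day 14 and -0.88 (SE 0.14, adjusted p = 0.0175) at day 20. In the anus it was called lower at day 9, at 3.17, 3.14 and 4.62 TPM against 7.57, 9.40, 8.77 and 18.9 TPM, a difference of -1.32 (SE 0.31, adjusted p = 0.0462). Anal days 14 and 20 also lay wholly below day 0. Their differences of -1.06 (SE 0.31, adjusted p = 0.109) and -0.84 (SE 0.33, adjusted p = 0.217) missed the threshold. So did midcolon day 20, wholly below day 0 at -0.76 (SE 0.23, adjusted p = 0.105).

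Colonocyte markers were lower beside Bmp2 at day 9 in midcolon and anus, and not at day 3 in the rectum. They summed to 7943 TPM (range 6680 to 8646) in uninjured midcolon and 3198 TPM (range 2861 to 3588) at day 9. There 4 of 6 were called lower, where 43.4% of all genes were called. In the anus they summed to 1055 TPM (range 611 to 1913) at day 0 and 98.1 TPM (range 78.3 to 110) at day 9. Of 5 tested there, 5 were called, against 5.09% of all genes. In the rectum at day 3, where Bmp2 was lower, the sum was 9878 TPM (range 9305 to 10280) against 7373 TPM (range 6757 to 8498) at day 0. Of 6 markers 1 was called higher and none lower, where 6.62% of all genes were called. At rectal days 9, 14 and 20, 5, 3 and 0 of 6 were called in either direction, against 53.5%, 15.8% and 7.68% of all genes. The part of these markers in the Bmp2 level was not tested. The midcolon day 14 call was lost without mouse 1, 2, 3, 15 or 16 (adjusted p up to 0.174) and with no filter on low values (0.0748). The rectal day 3 call was lost without mouse 1, 2, 3, 5 or 6 (adjusted p up to 0.102), with no filter on low values (0.0675) and with all days of the section in 1 fit (0.15). The rectal day 9 call was lost without mouse 1, 2, 3, 11 or 12 (adjusted p up to 0.0852) and with no filter on low values (0.0506). The rectal call at day 14 was lost without mouse 1, 2, 3, 4, 15 or 16 (adjusted p up to 0.0898) and with no filter on low values (0.0658), and that at day 20 without mouse 1, 2 or 3 (adjusted p up to 0.0693). The anal call was lost without mouse 2, 3, 11, 12 or 13 (adjusted p up to 0.172) and with no filter on low values (0.111). The midcolon day 9 call held under all of these.

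Bmp5, a BMP ligand of the gut mesenchyme, changed direction over time in the rectum. It had 3.76, 4.53, 5.33 and 4.83 TPM at day 0, 1.15, 0.864 and 2.42 TPM at day 3, 4.56, 2.33 and 5.43 TPM at day 6 and 11.2, 5.29 and 8.48 TPM at day 9. Day 3 lay wholly below day 0, and day 9 overlapped with it at its lowest sample. The log2 difference was -1.22 (SE 0.21, adjusted p = 0.0103) at day 3 and 0.69 (SE 0.23, adjusted p = 0.0305) at day 9. Fibroblast markers were low at day 3 as well, summing to 394 TPM (range 315 to 473). Of 8 of them 4 were called lower, where 6.62% of all genes were called. At day 9 their sum reached 1146 TPM (range 807 to 1384), with 4 of 8 called higher, a share near the 53.5% of all genes called. The part of these markers was not tested. In the midcolon Bmp5 was higher at day 9, with 2.75, 4.61 and 3.68 TPM against 1.84, 1.94, 2.46 and 1.72 TPM, a difference of 0.63 (SE 0.20, adjusted p = 0.0259). In the anus no day was called for Bmp5 with limma, and 2 of 5 had an unadjusted p under 0.05. The rectal day 3 call was lost without mouse 5 (adjusted p = 0.053) and with all days of the section in 1 fit (0.0649). The rectal day 9 call was lost without mouse 1, 2, 4, 11 or 13 (adjusted p up to 0.0944), with no filter on low values (0.0645), with TMM factors (0.0934) and with all days of the section in 1 fit (0.0869). The midcolon call was lost without mouse 1, 2, 12 or 13 (adjusted p up to 0.11) and with no filter on low values (0.0536).

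Bmp4 had the fewest calls of the 3 BMP ligands against day 0. Its only call was in the midcolon at day 6, with 10.3, 9.80 and 7.60 TPM against 3.75, 3.98, 7.67 and 4.10 TPM. The lowest day 6 value lay just under the highest day 0 value, and the difference was 0.84 (SE 0.24, adjusted p = 0.0436). That call was lost without mouse 1, 2, 8, 9 or 10 (adjusted p up to 0.126), with no filter on low values (0.0981) and with all days of the section in 1 fit (0.0681). In the anus Bmp4 had 16.9, 26.4, 16.8 and 18.3 TPM at day 0 and 9.78, 7.96 and 12.3 TPM at day 9. The groups did not overlap, and the difference of -0.90 (SE 0.23, adjusted p = 0.0587) missed the threshold. In the rectum Bmp4 was 8.73 ± 2.47 TPM (SD, n = 4) at day 0 and 12.4 ± 3.02 TPM (n = 3) at day 9, a difference of 0.46 (95% interval -0.068 to 1.00, adjusted p = 0.126).

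In rectum and midcolon, set against Bmp2, Bmp4 and Bmp5, the antagonist transcript stood far lower before than after injury. The ratio of Grem1 to the summed TPM of Bmp2, Bmp4 and Bmp5 was 0.0964, 0.0893, 0.0984 and 0.155 in the uninjured rectal sections and 2.02, 0.698 and 1.89 in those of day 9. In the rectum the mean ratio was 0.110 at day 0, 0.362 at day 3 and 0.990 at day 6. It was highest at day 9, with 1.54, and stood at 0.559 on day 14 and 0.576 on day 20. The midcolon went from 0.104, 0.136, 0.107 and 0.167 at day 0 to 0.791, 1.09 and 0.931 at day 9 and 0.533, 0.402 and 0.648 at day 20. In both sections every sample after day 0 was above every uninjured one. The anal ratio ranged from 0.0369 to 0.424 at day 0. It lay wholly above that range at day 6 only (0.714 to 1.41), and overlapped with it at the other days. The summed ligands in the midcolon went from a mean of 42.2 TPM to 22.0 TPM at day 9, and were 52.5 and 47.8 TPM in the rectum. The share of Bmp2 in that sum went from 83.6% to 51.2% in the midcolon and from 74.6% to 56.8% in the rectum. That sum leaves out other BMP ligands, of which Bmp8b and Bmp7 were called higher and Bmp3 lower in the rectum at day 9. The mean TPM of Bmp8b there was above those of Bmp4 and Bmp5, so the ratio does not cover all BMP ligands. These ratios are descriptions and were given no test.

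**Figure D3:**
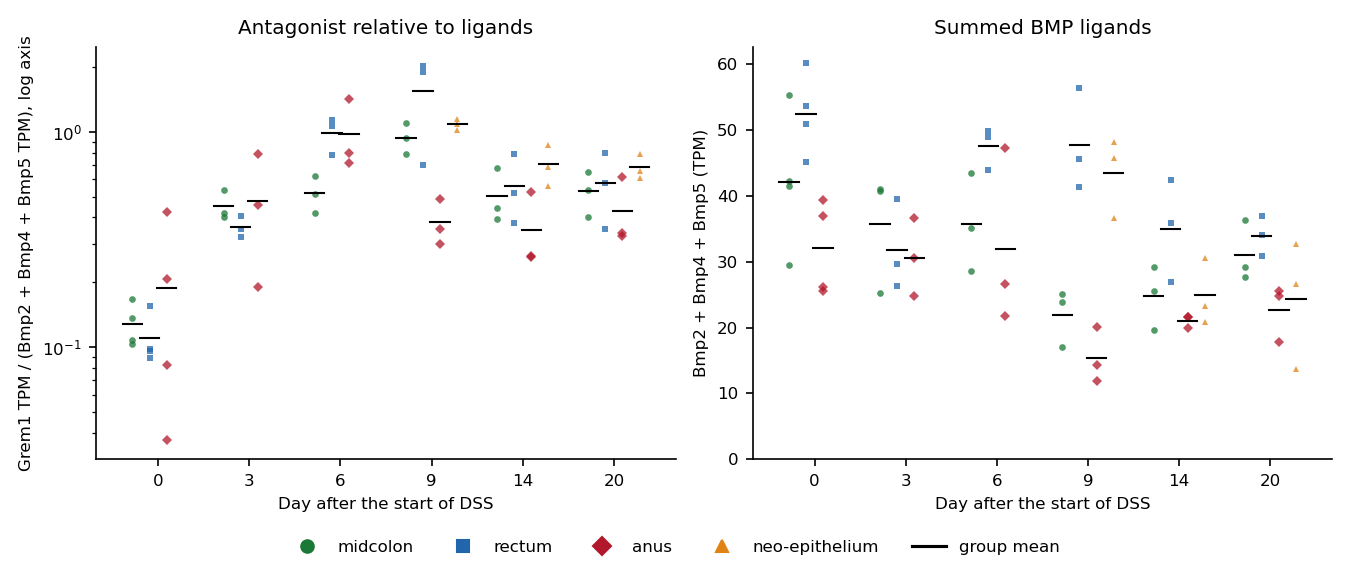
Left, the ratio of Grem1 TPM to the summed TPM of Bmp2, Bmp4 and Bmp5 (log axis). Right, that sum in TPM (linear axis from 0), both against day, with 1 point per mouse and section and a bar for the group mean. In midcolon and rectum the ratio is above all uninjured values at every later day, with the highest mean, 1.54, in the rectum at day 9.

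Genes that respond to BMP fell early in the rectum and partly came back. Of 6 BMP target genes (Id1 to Id4, Smad6 and Smad7), 5 were lower at day 3, 6 at day 6 and 3 at day 9, when 1 was higher, and with limma none was called at days 14 and 20 (1 had an unadjusted p under 0.05 at each). Of all genes, 6.62%, 48.7% and 53.5% were called at days 3, 6 and 9. From day 6 to day 9, 3 of 5 tested rose. The median log2 difference of the 6 was -1.06 at day 3, -1.18 at day 6 and -0.39 at day 9, where the medians over all genes tested were -0.061, -0.27 and 0.13. Id3, an inhibitor of bHLH factors, had 35.6, 43.7, 54.1 and 55.7 TPM at day 0, 11.5, 9.92 and 18.5 TPM at day 3 and 69.1, 42.7 and 48.1 TPM at day 9. The day 3 samples lay wholly below day 0, a difference of -1.78 (SE 0.22, adjusted p = 0.00195), and the day 9 samples overlapped with it. Smad7, an inhibitory SMAD that also responds to TGF-β, differed by -1.55 (SE 0.14, adjusted p = 0.000212) at day 6 and -1.12 (SE 0.15, adjusted p = 0.000371) at day 9. Id2 was lower at day 3 (-1.52, SE 0.18, adjusted p = 0.00173) and higher at day 9 (0.97, SE 0.16, adjusted p = 0.000979), with 25.7, 27.7, 30.6 and 35.7 TPM at day 0 and 58.9, 71.4 and 49.6 TPM at day 9. In the midcolon 5 of 6 were lower at day 6, where 14.9% of all genes were called, and 3 of 6 at day 9, near the 43.4% of all genes.

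Of the Wnt target list of 10 genes, 4 were tested in the rectum against day 0. Axin2, a feedback inhibitor induced by β-catenin signalling, had 2.12, 2.42, 1.78 and 1.93 TPM at day 0, 0.868, 0.142 and 0.350 at day 3, 0.272, 0.121 and 0.0647 at day 6 and 2.57, 2.35 and 3.29 at day 9. It was lowest at day 6, when Rspo3 was already high, and its day 9 samples overlapped with day 0. The difference was -1.10 (SE 0.19, adjusted p = 0.00965) at day 3 and -1.41 (SE 0.14, adjusted p = 0.000334) at day 6. Rnf43 and Znrf3, the receptor-removing ligases that R-spondins restrain, were also lower at day 6 (-0.81, SE 0.14, adjusted p = 0.00257, and -0.69, SE 0.15, adjusted p = 0.00633). At day 9 none of the 4 was called with limma (0 with an unadjusted p under 0.05), and Axin2 there differed by 0.28 (SE 0.15, adjusted p = 0.155).

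**Figure D4:**
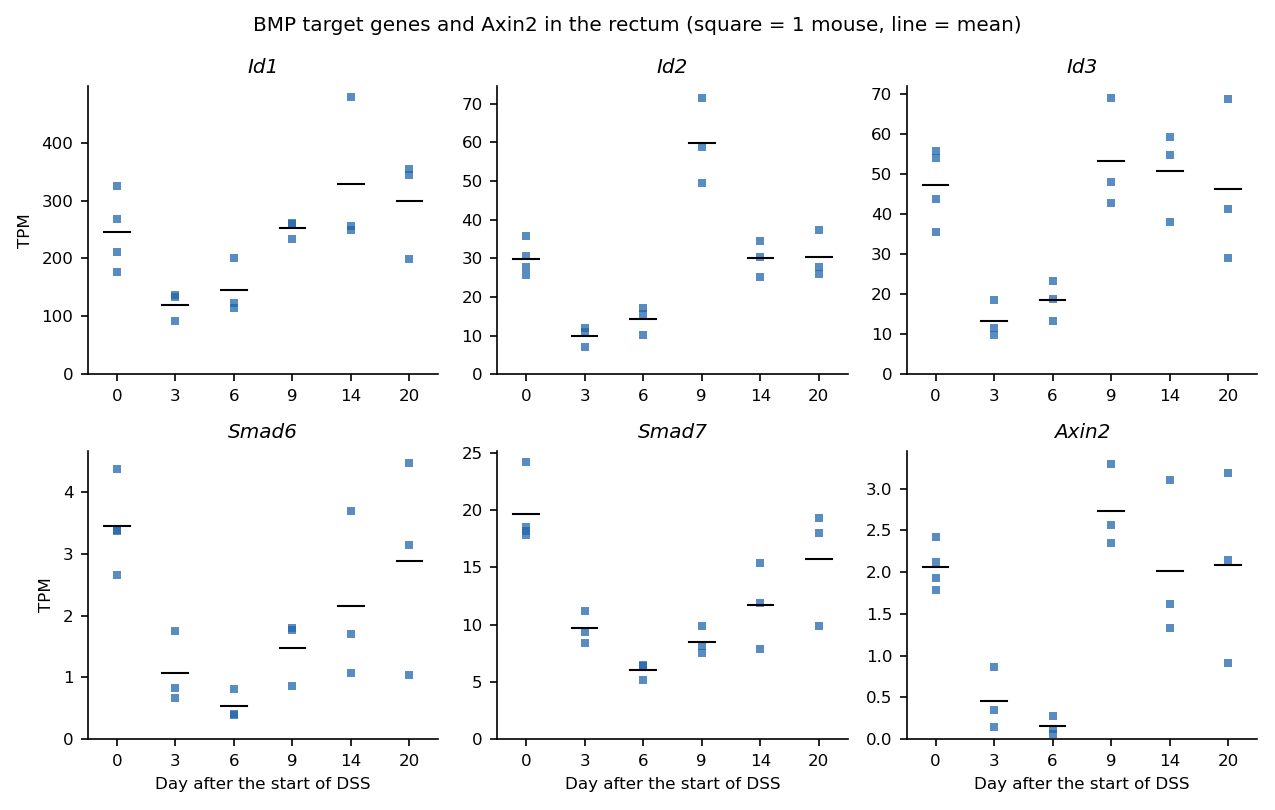
TPM (linear axis from 0) of 5 BMP target genes and Axin2 in the rectum against day, with 1 square per mouse and a bar for the mean. All 6 means are below day 0 at days 3 and 6, and at day 9 the means of Axin2, Id1, Id2 and Id3 are above those of day 0. The genes plotted were chosen after their values were seen.

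Receptors and other secreted inhibitors also differed from day 0 in the rectum, where 48.7% of all genes were called at day 6 and 53.5% at day 9. Of the Wnt and R-spondin receptors tested in the rectum, 10 of 12 were lower and 1 higher at day 6 and 6 of 12 were lower and 1 higher at day 9, the latter a share near that of all genes. This list includes the ligases Rnf43 and Znrf3, and it shares both of them and Lgr5 with the Wnt target list. Lgr4, a receptor of R-spondins, differed by -1.70 (SE 0.16, adjusted p = 4.99e-05) at day 9, and the Wnt receptor Fzd1 by 1.57 (SE 0.25, adjusted p = 0.00086). Of 3 secreted Wnt inhibitors tested, Sfrp1 and Sfrp2 rose at days 6 and 9, with Sfrp1 at 2.18, 1.88, 2.50 and 2.19 TPM at day 0 and 14.1, 8.68 and 17.3 TPM at day 9 (2.13, SE 0.22, adjusted p = 7.24e-05). Of 7 other BMP antagonists tested at day 9, 4 rose, again a share near that of all genes, led by follistatin (Fst: 2.42, SE 0.16, adjusted p = 8.74e-06) and Chrdl2 (2.01, SE 0.33, adjusted p = 0.000999). Follistatin mainly binds activins. Of 4 BMP receptors tested, 2 were lower at day 6, and with limma none was called at day 9 (0 with an unadjusted p under 0.05).

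The rectum and the midcolon were compared in their day 9 response by the interaction of section and day. No signal of 8 was called with limma, where 6.55% of all genes were, and 3 had an unadjusted p under 0.05. On the log2 scale the rectal response minus the midcolon response was 1.57 (95% interval 0.49 to 2.64, adjusted p = 0.0832) for Grem1 and 1.03 (95% interval 0.29 to 1.76, adjusted p = 0.101) for Rspo3. For Bmp2 it was 1.03 (SE 0.35, adjusted p = 0.109), with a fitted change against day 0 of -0.53 in the rectum and -1.56 in the midcolon. With the mouse as a paired block the Bmp2 difference was called (adjusted p = 0.0116), while Grem1 and Rspo3 had adjusted p = 0.11 and 0.144. With TMM factors Bmp2 was called too (adjusted p = 0.0477).

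Several signals differed between the squamous neo-epithelium and the rectum or the anus, as did many of all genes. Against the rectum of the same 9 mice, with day as a covariate, Wnt4 and Wnt5a were higher and Bmp2 and Rspo3 lower (4 of 7 tested, where 42.9% of all genes were called). Against the anus, Grem1, Bmp5, Bmp2 and Wnt5a were higher and Wnt4 and Rspo1 lower (6 of 9 tested, a share near the 59.8% of all genes called). Wnt4 in neo-epithelium was 29.3, 26.9 and 21.6 TPM at day 9 and 11.7, 16.0 and 14.2 TPM at day 20. In the same mice the rectum had 2.66, 1.66 and 4.96 and 3.83, 0.923 and 0.794 TPM, and the anus 41.8, 47.1 and 44.4 and 28.1, 30.4 and 28.4 TPM. In each of the 9 mice neo-epithelial Wnt4 lay between that of rectum and anus, with log2 differences of 2.60 (SE 0.23, adjusted p = 1.53e-07) from the rectum and -0.89 (SE 0.094, adjusted p = 5.76e-07) from the anus. Bmp2 also lay in between in every mouse, with -1.09 (SE 0.17, adjusted p = 5.59e-05) from the rectum and 1.01 (SE 0.15, adjusted p = 2.21e-05) from the anus.

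Wnt5a was above both in 8 of 9 mice. At day 9 it had 13.3, 18.2 and 18.7 TPM in neo-epithelium, 4.65, 3.35 and 4.96 TPM in the rectum and 5.02, 6.30 and 11.9 TPM in the anus. It was higher than in the rectum in 9 of 9 mice, by 1.58 (SE 0.21, adjusted p = 1.27e-05), and higher than in the anus in 8 of 9 mice, by 0.51 (SE 0.17, adjusted p = 0.0162). Grem1 was higher than in the anus in 9 of 9 mice, by 1.57 (SE 0.30, adjusted p = 0.000309), and did not pass the test against the rectum (-0.28, 95% interval -0.77 to 0.22, adjusted p = 0.368). Bmp5 was higher than in the anus in 8 of 9 mice, by 1.38 (SE 0.25, adjusted p = 0.000182), and against the rectum differed by 0.16 (95% interval -0.28 to 0.60, adjusted p = 0.571). Rspo1, high in the anus, was lower in neo-epithelium in all 9 mice, with a difference of -1.28 (SE 0.20, adjusted p = 5.11e-05). Rspo3 was lower than in the rectum in 7 of 9 mice, with a difference of -0.48 (SE 0.17, adjusted p = 0.0328). The Wnt5a difference from the anus was lost without mouse 12 (adjusted p = 0.0607) and with TMM factors (0.0507), and the Rspo3 difference from the rectum without mouse 11, 13, 14, 17 or 19 (adjusted p up to 0.106) and with no filter on low values (0.0547). Every call between sections was also made with the mouse as a paired block.

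**Figure D5:**
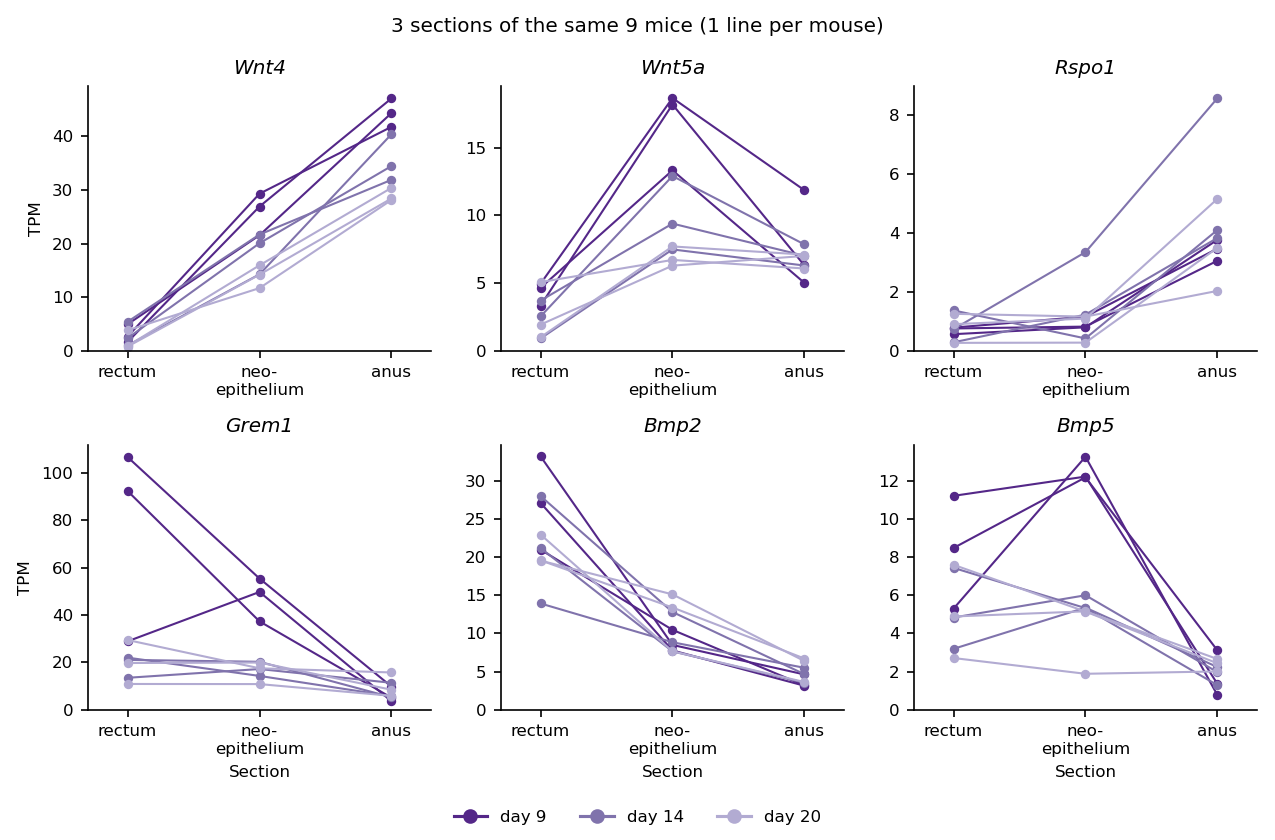
TPM (linear axis from 0) of 6 signals in the rectum, neo-epithelium and anus, with 1 line per mouse (9 mice, 3 each at days 9, 14 and 20, darker to lighter). Wnt4 and Bmp2 in neo-epithelium lie between rectum and anus in each mouse, and Wnt5a is higher in neo-epithelium than in the rectum in 9 of 9 mice.

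Between day 9 and day 20 most of the signals fell in the neo-epithelium. Of 9 signals tested, 6 were called lower at day 20 and none higher, where 26.2% of all genes were called. Bmp5 went from 12.2, 13.3 and 12.2 TPM to 5.14, 1.88 and 5.16 TPM and Grem1 from 37.3, 49.8 and 55.4 TPM to 17.5, 10.8 and 19.9 TPM, both without overlap. The differences were -1.50 (SE 0.31, adjusted p = 0.0174) for Bmp5, -1.53 (SE 0.26, adjusted p = 0.0096) for Grem1, -1.37 (SE 0.40, adjusted p = 0.0471) for Bmp4 and -1.16 (SE 0.18, adjusted p = 0.00758) for Wnt5a. Wnt4 differed by -0.85 (SE 0.18, adjusted p = 0.0192) and Rspo3 by -0.60 (SE 0.16, adjusted p = 0.0343). Bmp2, which had a positive difference, had 10.5, 7.77 and 8.49 TPM at day 9 and 13.4, 7.65 and 15.1 TPM at day 20 (0.36, 95% interval -0.28 to 0.99, adjusted p = 0.352). Fibroblast markers fell with the signals, 7 of 8 called lower, from 2629 TPM (range 2149 to 3142) to 795 TPM (range 509 to 1043), and leukocyte markers went from 13550 TPM (range 6824 to 17040) to 2232 TPM (range 496 to 5256). Colonocyte markers rose, 5 of 5 tested, from 266 TPM (range 161 to 421) to 2709 TPM (range 1706 to 3318), and the part of these cell types was not tested. Among these calls, only that of Wnt5a held with each of the 6 mice left out. The Grem1 call was lost without mouse 13 (adjusted p = 0.0512), Bmp5 without mouse 11, 12 or 13 (adjusted p up to 0.0694), and Wnt4 without mouse 11, 12 or 17 (adjusted p up to 0.0781). The Rspo3 call was lost without mouse 11, 12, 13, 17 or 18 (adjusted p up to 0.139) and with no filter on low values (0.0617). The Bmp4 call was lost without mouse 12, 13, 17 or 18 (adjusted p up to 0.154), with a pseudocount of 0.1 (0.0513), with no filter on low values (0.0908) and with TMM factors (0.0508).

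The genes most like each signal over the 66 samples, by Pearson r of log2(TPM + 1) among 13563 genes, differed between signals. For Grem1 they were Gm13889 (0.81), Hgf (0.79) and Plod2 (0.78), and for Rspo3 Cald1 (0.77), Rasl12 (0.76) and Ednrb (0.74). For Bmp5 they were Ces1g (0.87), Hgf (0.84) and Syt13 (0.83), so Hgf (hepatocyte growth factor) was among the 3 nearest of both Grem1 and Bmp5. For Wnt4 they were Trim29 (0.99), Lmo1 (0.99) and Rcn1 (0.99), for Wnt5a Bnip2 (0.94), Myo5a (0.94) and Dse (0.93) and for Wnt2b Akap12 (0.78), Prelp (0.77) and Kank2 (0.76). For Rspo1 they were Fbln5 (0.93), Thy1 (0.92) and Epdr1 (0.92). For Bmp4 they were Lix1l (0.89), Sgce (0.88) and Pid1 (0.88), and for Bmp2 Elf4 (0.94), Pacsin2 (0.94) and Dgkd (0.93). Within the 19 rectal samples Grem1 and Rspo3 had an r of 0.93 with each other. There the 3 nearest genes of Grem1 were Rgs4 (0.96), Ms4a7 (0.95) and Lgmn (0.95), and those of Rspo3 Mgp (0.94), Ctsk (0.94) and Cpe (0.94). Bmp5 there was most like Pcdh7 (0.96), F2r (0.95) and Fstl1 (0.95), Bmp4 most like Antxr1 (0.93), Axl (0.90) and Bmp1 (0.90) and Bmp2 most like Hpgds (0.80), Zfand3 (0.79) and Arhgap17 (0.78). Wnt5a was most like Anxa6 (0.96), Sgcb (0.95) and Scpep1 (0.95), and Wnt4 most like Ptp4a3 (0.95), Gga2 (0.94) and Ndst1 (0.93). These samples share section, day and mouse, so the values describe likeness and carry no test.

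By GENCODE M21 on mm10, the 10 signals lie on 7 chromosomes. Grem1 lies at chr2:113746164-113758646 and Bmp2 at chr2:133552159-133562885, Wnt2b at chr3:104945272-104961921, Rspo1 at chr4:124986430-125009099, Wnt4 at chr4:137277489-137299726 and Bmp5 at chr9:75775364-75900310. Rspo3 lies at chr10:29452416-29535867, Wnt5a at chr14:28504750-28527448, Bmp4 at chr14:46383520-46390669 and Rspo2 at chr15:43020794-43170826. The TPM of Bmp4 came almost evenly from 2 transcripts (49.7% and 49.4%), and that of Wnt5a mostly from 3 (53.7%, 29.4% and 13.5%).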

How the data were processed

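Deposited transcript abundances from 66 bulk RNA-seq samples, made by the authors, were used. The submitters' processing notes name kallisto, CASAVA and mm10, without versions. The deposited values, of a unit other than counts, are TPM on a linear scale. Of 126860 lines, 37344 had no values and 1318 repeated a transcript and were dropped, after which each sample summed to 1000000 TPM. Of the remaining 88198 transcripts, 1284 had no gene (0.563 to 2.833% of TPM) and were left out. The others were summed into 30452 genes. Depth is unknown, as no counts were used. log2(TPM + 1) was tested with limma 3.58.1 (moderated, with a mean trend, in R 4.3.3), over genes that reached 1 TPM in enough samples to fill the smaller group, with Benjamini-Hochberg adjustment. The fits were tested on simulated data. Sections of 1 mouse pair samples, and the mean correlation of their deviations was 0.0538 to 0.275. All 10 signals were named in every comparison, with up to 3 called genes of largest change per pathway list and the 3 nearest genes per signal. The members and lists were chosen with earlier results of these data known. Alternatives were a pseudocount of 0.1, no filter, TMM factors, all days in 1 fit, the mouse block and leaving out each mouse.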

Additional observations from a re-analysis of the deposited data

Results flagged for a closer look

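In 6 of the 27 uninjured groups of 4 mice (9 signals in 3 sections), 1 mouse stood far from the other 3. The cutoff is passed by about 1 in 20 groups of independent, normally distributed values. These groups all come from the same 4 mice, so their count cannot be set against that rate. The mouse that stood apart was not the same in all groups. In uninjured midcolon Wnt2b was 1.29 TPM in 1 mouse against 0.862 to 0.926 TPM in the others. Rspo1 there was 0.936 TPM in mouse 2 against 0.0585 to 0.0983 TPM. Midcolon Bmp4 was 7.67 TPM in mouse 3 against 3.75 to 4.10 TPM, and anal Bmp4 was 26.4 TPM in mouse 2 against 16.8 to 18.3 TPM. In mouse 4 Bmp2 was low in the rectum, at 32.0 TPM against 41.0 to 42.8 TPM. It was high in the anus of the same mouse, at 18.9 TPM against 7.57 to 9.40 TPM. The tenth signal, Rspo2, has no part in that count, since any value beside 3 zeros stands apart. It was listed at 0 in 3 of 4 mice of each section and at 0.0125 TPM in 1 midcolon, 0.0324 TPM in 1 rectum and 0.0457 TPM in 1 anus.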

How the results depend on the processing

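None of the 52 calls changed sign under any alternative. A pseudocount of 0.1 kept 51 of them, TMM factors 48 and no filter on low values 33. Fitting all days of a section together kept 27 of the 34 it could test. The mouse as a paired block kept 18 of 18. Leaving out 1 mouse kept 252 of 354 refitted calls, and 25 calls held under every alternative. The cause of the losses was not tested. With no filter, the count of signals called became 1 at midcolon day 6 (3 reported), 1 at midcolon day 14 (2), 0 at midcolon day 20 (1), 1 at rectum days 3 (3), 14 (2) and 20 (2), 0 at anus days 6 (2) and 9 (1), and 1 for uninjured rectum against midcolon (2). With TMM factors it became 1 at midcolon day 3 (0), 2 at midcolon day 20 (1), 2 at anus day 9 (1), 1 for rectum day 9 against day 6 (0), 1 for uninjured rectum against midcolon (2) and 1 for the difference in day 9 response (0). With all days in 1 fit it became 1 at midcolon day 3 (0), 1 at midcolon day 6 (3), 0 at rectum day 3 (3), 3 at anus day 9 (1), 1 at anus day 14 (0) and 2 for rectum day 14 against day 9 (0). With the mouse as a paired block, 1 signal (Bmp2) was called in the day 9 response (0 without). Leaving out each mouse in turn gave counts of 0 to 1 in the midcolon at day 3, 1 to 4 at day 6, 3 to 5 at day 9, 0 to 2 at day 14 and 0 to 2 at day 20. In the rectum it gave 0 to 4 at day 3, 2 to 3 at day 6, 4 to 6 at day 9, 1 to 4 at day 14 and 0 to 2 at day 20. In the anus it gave 0 to 2 at day 6 and 0 to 1 at day 9. It gave 0 to 3 for rectum day 9 against day 6, 0 to 1 for day 14 against day 9, 2 to 6 for neo-epithelium day 20 against day 9, 6 to 7 for uninjured anus against rectum, 0 to 1 for uninjured rectum against midcolon, 3 to 4 for neo-epithelium against rectum and 0 to 2 for the difference in day 9 response. Genes near 1 TPM, which are most of the Wnt and R-spondin genes in the colon, have fold changes understated by the added 1 TPM.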

Other observations

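Other Wnt ligands were high in the squamous sections along with Wnt4. Of 5 other Wnt ligands and R-spondins tested between neo-epithelium and rectum of the same 9 mice, 4 were higher and none lower, where 42.9% of all genes were called, with a median log2 difference of 1.96 against 0.0022 over all genes tested. Wnt7b, an epithelial ligand, was 12.2 ± 1.61 TPM (SD, n = 3) in day 9 neo-epithelium and 0.288 ± 0.211 TPM in day 9 rectum, and differed by 3.23 (SE 0.15, adjusted p = 1.41e-10) with limma. Wnt10a differed by 1.98 (SE 0.19, adjusted p = 4.04e-07) and Wnt16 by 1.96 (SE 0.20, adjusted p = 6.22e-07). In uninjured mice 7 of 8 of this list were higher in the anus than in the rectum and 1 was lower (Wnt8b, named after its value was seen), where 60.3% of all genes were called. Wnt7b there differed by 3.81 (SE 0.15, adjusted p = 8.11e-08).

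Secreted inhibitors were also higher in neo-epithelium than in the rectum, against the same 42.9% of all genes called. Of 6 secreted Wnt inhibitors tested 5 were higher, led by Wif1 (2.31, SE 0.17, adjusted p = 1.95e-08) and by Notum (1.73, SE 0.18, adjusted p = 1.41e-06), a lipase that removes the lipid of Wnt proteins and is also a Wnt target. Of 6 other BMP antagonists 4 were higher, with Sostdc1, which also binds Wnt co-receptors, at 2.72 (SE 0.31, adjusted p = 2.87e-06) and Fst at 2.21 (SE 0.30, adjusted p = 1.99e-05). Sfrp4 separated neo-epithelium from anus, at 1.67 ± 0.963 TPM against 26.6 ± 11.4 TPM at day 9 and a difference of -3.98 (SE 0.28, adjusted p = 3.20e-09). Of the 6 BMP target genes, 5 were higher in neo-epithelium than in the anus, with Id1 at 1.36 (SE 0.17, adjusted p = 5.06e-06), where 59.8% of all genes were called. Against the rectum 2 were higher and 1 lower, a share of the 6 near the 42.9% of all genes.

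Among other BMP ligands in the rectum at day 9, Bmp8b differed from day 0 by 3.49 (SE 0.27, adjusted p = 1.80e-05) and Bmp7 by 1.32 (SE 0.18, adjusted p = 0.000328), while Bmp3 differed by -1.27 (SE 0.28, adjusted p = 0.00483). Bmp8b was 1.23 ± 0.538 TPM at day 0 (SD, n = 4) and 24.5 ± 7.94 TPM at day 9 (n = 3). The difference of Bmp8b was larger than that of any of the 3 BMP ligands among the signals.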
